A study of Mus musculus with 2 samples.

Results

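The genes of the mitochondrial respiratory chain and ATP synthase were followed in stromal cells of epididymal white adipose tissue (eWAT). They were taken by symbol, as every gene that starts with Ndufa, Ndufb, Ndufc, Ndufs, Ndufv, Sdh, Uqcr, Cox4 to Cox8, Atp5 or mt-. This gave 109 of the 27998 genes in the count tables, of which 85 are nuclear genes named as subunits, 11 are nuclear assembly factors (Ndufaf and Sdhaf) and 13 are the protein-coding genes of the mitochondrial genome (mt-). The rule itself uses symbols alone. Cox7b2 and Cox8c, which are largely testis isoforms, had no UMI in either library.

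Male C57BL/6J mice received a diet low in fat (LFD) or high in fat (HFD). Feeding began at an age of 6 wk and lasted 24 wk, after which the stromal vascular cells of eWAT were prepared. Groups follow the title and treatment label of each sample, whereas a protocol text shared by both samples names the diet low in fat alone. Cells were profiled on the 10x Chromium 3′ v3 platform. Unique molecular identifiers (UMIs) tag each captured transcript, so that its copies count only once. The study has 1 library per diet, and the number of mice behind each is not given in the sources used here. No test between diets was therefore possible, and the 95% intervals below cover counting error only, not the difference between barcodes, animals or libraries.

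In each of the 5 complexes of this machinery, subunits are set in the inner mitochondrial membrane. Complexes I and II take electrons from NADH and succinate, complex III passes them to cytochrome c, complex IV hands them to oxygen, and complex V uses the resulting proton gradient to make ATP. Complexes I, III, IV and V are mosaics of proteins from the nucleus and from mitochondrial DNA, whereas complex II is nuclear alone. In fat depots this capacity is best known from adipocytes, but resident stromal and immune cells carry it too.

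The LFD library held 1113 barcodes and 7356278 UMIs, and for HFD there were 1144 barcodes and 8412325 UMIs. The libraries shared 0 barcode strings. Barcodes with at least 200 genes (1057 on LFD and 1117 on HFD) were sorted by marker UMIs into fibroblasts (Dcn of at least 10), an endothelial class (Cdh5 and Cldn5 of at least 3), macrophages (C1qa, C1qb and C1qc of at least 10) and T cells (Cd3d, Cd3e and Cd3g of at least 2). Fibroblasts numbered 377 on LFD and 293 on HFD, endothelial barcodes 149 and 207, macrophages 229 and 320, and T cells 72 and 21. Barcodes that met more than 1 rule (15 and 27) were left out, and 215 and 249 met none. Each class carried its own markers, with summed levels in CPM (UMIs scaled to 1000000 UMIs of the class) of 45022 and 53153 in fibroblasts, 7959 and 8009 in endothelial barcodes, 16957 and 14261 in macrophages and 1750 and 3430 in T cells. The endothelial class also held the 4 mural cell markers Rgs5, Kcnj8, Abcc9 and Notch3, at 1628 CPM on LFD and 1762 CPM on HFD, so it is an endothelial class by its rule and not a pure one.

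Macrophages were the class in which nuclear respiratory chain genes were higher on HFD across all complexes. Summed over the 85 subunit genes, they made up 13620 CPM on LFD and 17582 CPM on HFD, a ratio of 1.29 (95% interval 1.27 to 1.31). The median macrophage barcode held 1.29% of its UMIs in these genes on LFD (quartiles 1.12 and 1.49%) and 1.62% on HFD (quartiles 1.36 and 1.88%). The mt- genes differed less, at 59519 CPM on LFD and 61770 CPM on HFD (ratio 1.04, 1.03 to 1.05), and this small difference turned when barcodes were thinned to 1000 UMIs (log2 ratio -0.020) or held to the methods' limits on genes and mt- UMIs (-0.019). In the smaller set of nuclear assembly factors the sums were 176 and 204 CPM (ratio 1.16, 1.0 to 1.35).

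Fibroblasts and the endothelial class did not share this shift. In fibroblasts the nuclear sum was 14552 CPM on LFD and 15054 CPM on HFD (ratio 1.03, 1.02 to 1.05), and in the endothelial class it was 18283 and 17280 CPM (ratio 0.945, 0.929 to 0.962). The 2 diets thus differed in opposite directions in macrophages and in the endothelial class, a difference that could not be tested with 1 library per diet. Barcodes with 3 or more Rgs5 UMIs were 59 of 149 on LFD and 102 of 207 on HFD, and without any barcode holding Rgs5 the endothelial log2 ratio was -0.048 (-0.10 to 0.0080), in place of -0.081. The fibroblast ratio is small enough to fall to the other side of 1 (log2 ratio -0.011) when only barcodes within the gene and mt- limits of the study's methods are kept. For the mt- genes the ratio was 1.10 (1.09 to 1.11) in fibroblasts, from 41227 to 45330 CPM (log2 ratio 0.14, but 0.036 when thinned to 1000 UMIs and 0.073 under 10% mt- UMIs), and 1.13 (1.11 to 1.14) in the endothelial class, from 40873 to 46071 CPM.

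**Figure D1:**
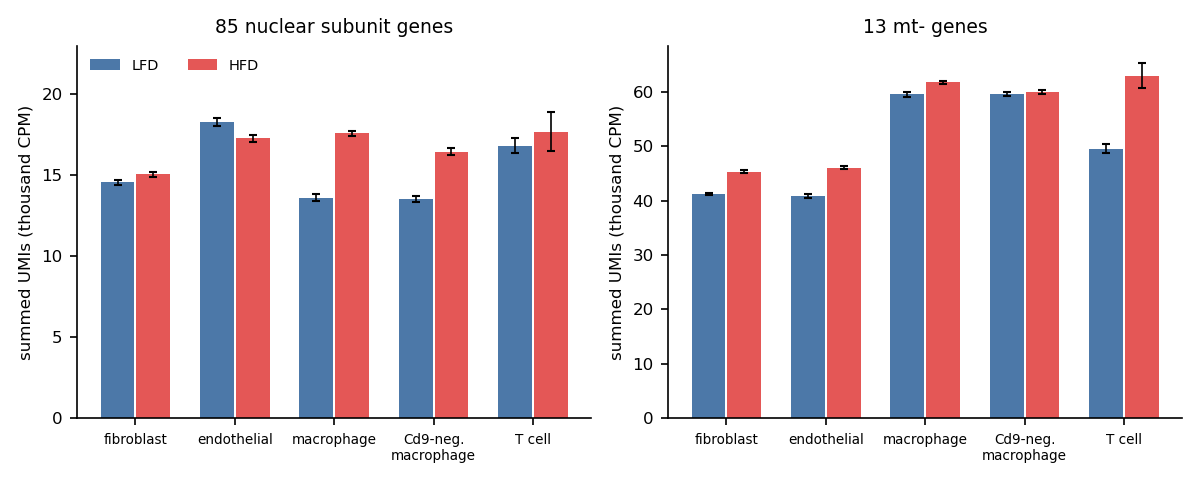
Summed level of the nuclear subunit genes and of the mt- genes (CPM) in each class, with LFD and HFD side by side and 95% counting intervals. Nuclear genes are higher on HFD in macrophages (13620 against 17582 CPM) and close between diets in fibroblasts (14552 against 15054 CPM).

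Gene by gene, 75 of the 85 nuclear subunit genes had at least 50 macrophage UMIs over both libraries. The 10 below that minimum are Ndufa4l2, Cox4i2, Cox6a2, Cox6b2, Cox7a1, Cox7b2, Cox8b, Cox8c, Atp5s and Atp5sl. Among the 75, 16 were at least 1.5-fold higher on HFD and 0 were at least 1.5-fold lower. Over all 7137 genes with as many macrophage UMIs, 14.2% were that much higher and 16.8% that much lower. The 16 genes are 21.3% of the 75, above the background share of higher genes, and the share of lower genes, at 0, is below it. The ratio was above 1 for 69 of the 75, against 48.5% of all genes, and the median log2 ratio was 0.35, against -0.02 over all genes. In fibroblasts 55 of 77 had a ratio above 1 (46.3% of all genes), with a median log2 ratio of 0.06 against -0.03. In the endothelial class these were 26 of 77 (52.6% of all genes) and -0.09 against 0.02.

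**Figure D2:**
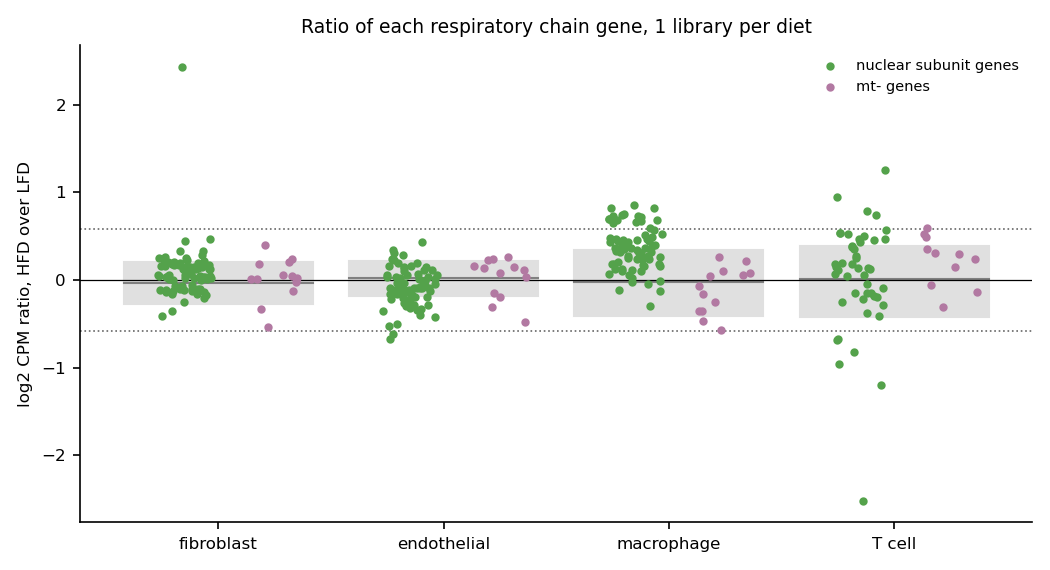
Ratio of CPM on HFD to CPM on LFD (log2 axis) for each nuclear subunit gene and each mt- gene with at least 50 UMIs, by class, over grey boxes for the quartiles and median of all genes and dotted lines at 1.5-fold. The macrophage points sit mainly above 0 (69 of 75 nuclear genes), whereas 55 of 77 do so in fibroblasts and 26 of 77 in the endothelial class.

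Complex I, the entry point for NADH, supplied 9 of the 16. Its nuclear subunits summed to 4448 CPM on LFD and 5683 CPM on HFD in macrophages, a log2 ratio of 0.35. Ndufb6, an accessory subunit of the membrane arm, had the highest ratio of any nuclear subunit gene in this class, with 83 UMIs (56.1 CPM) on LFD and 294 UMIs (101 CPM) on HFD, a ratio of 1.81 (1.41 to 2.33). Also past 1.5-fold were Ndufa8 (1.67), Ndufs3 (1.64), Ndufb5 (1.62), Ndufa10 (1.61), Ndufb8 (1.61), Ndufb2 (1.59) and Ndufv2 (1.57). Not every subunit was higher. Ndufa3, an accessory subunit, had 143 UMIs (96.6 CPM) on LFD and 229 UMIs (78.9 CPM) on HFD (ratio 0.82, 0.66 to 1.01), the lowest of the class. Ndufs1, which carries several iron-sulfur clusters, was at 35.8 and 33.1 CPM (ratio 0.92, 0.65 to 1.32), and Ndufv1, the subunit that binds NADH, at 52.0 and 67.2 CPM (ratio 1.29, 0.99 to 1.70). These intervals include 1, so no difference was detectable at this depth.

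Complex II, succinate dehydrogenase, is built from 4 nuclear proteins. In macrophages it summed to 356 CPM on LFD and 446 CPM on HFD (log2 ratio 0.32), and its members were not alike. Sdhb, the iron-sulfur subunit, had 155 UMIs (105 CPM) on LFD and 505 UMIs (174 CPM) on HFD (ratio 1.66, 1.39 to 2.0). Sdhd, a membrane anchor, was at 63.5 and 87.5 CPM (ratio 1.38, 1.08 to 1.77). Sdha, the flavoprotein that oxidises succinate, was at 98.0 and 90.0 CPM (ratio 0.92, 0.75 to 1.13), and Sdhc, the other anchor, had a ratio of 1.05 (0.85 to 1.30). The intervals of Sdhb and Sdha do not overlap.

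For complex III the macrophage sum was 1391 CPM on LFD and 1674 CPM on HFD (log2 ratio 0.27), and 0 of its 8 genes were past 1.5-fold. Uqcrc1, a core protein, was at 81.1 and 112 CPM (ratio 1.39, 1.12 to 1.72). Its partner Uqcrc2 was level, at 84.5 and 84.1 CPM (ratio 1.0, 0.80 to 1.25). Uqcrfs1, the Rieske iron-sulfur protein, had a ratio of 1.28 (1.03 to 1.60), and Uqcrh, the hinge protein next to cytochrome c1, had a ratio of 1.09 (0.98 to 1.20).

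Complex IV, cytochrome c oxidase, summed to 3650 CPM on LFD and 4715 CPM on HFD from its nuclear genes (log2 ratio 0.37). All 11 genes with at least 50 UMIs had a ratio above 1, and 1 was past 1.5-fold. That gene was Cox5a, with 451 UMIs (305 CPM) on LFD and 1403 UMIs (484 CPM) on HFD (ratio 1.59, 1.43 to 1.77). Cox4i1, the common form of the largest nuclear subunit, was at 723 and 922 CPM (ratio 1.28, 1.19 to 1.37). Cox8a was at 468 and 669 CPM (ratio 1.43, 1.31 to 1.56), Cox7c at 378 and 455 CPM (ratio 1.20, 1.09 to 1.33) and Cox6c at 340 and 380 CPM (ratio 1.12, 1.0 to 1.24). Each of these ratios was above 1 and below that of Cox5a, and the interval of Cox6c began just above 1.

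Complex V, the ATP synthase, had the highest sum ratio of the 5, with 3773 CPM on LFD and 5064 CPM on HFD (log2 ratio 0.42). All 15 of its genes with at least 50 UMIs had a ratio above 1, and 5 were past 1.5-fold. The 3 genes for the membrane rotor ring, Atp5g1, Atp5g2 and Atp5g3, which encode the same mature c subunit, were all among these. Atp5g1 had 303 UMIs (205 CPM) on LFD and 1047 UMIs (361 CPM) on HFD (ratio 1.76, 1.55 to 2.01). Atp5g3 had 193 UMIs (130 CPM) and 668 UMIs (230 CPM), a ratio of 1.77 (1.5 to 2.08), and Atp5g2 had 415 UMIs (280 CPM) and 1320 UMIs (455 CPM), a ratio of 1.62 (1.45 to 1.82). Atp5o, of the peripheral stalk, and Atp5d, of the central stalk, made up the 5, with ratios of 1.66 (1.43 to 1.94) and 1.51 (1.32 to 1.72). The alpha and beta subunits of the catalytic head were not alike. Atp5b, the beta subunit, was at 315 and 428 CPM (ratio 1.36, 1.22 to 1.52), while Atp5a1, the alpha subunit, was at 307 and 330 CPM (ratio 1.07, 0.96 to 1.20). Atp5e, the epsilon subunit, had a ratio of 1.41 (1.26 to 1.57).

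**Figure D3:**
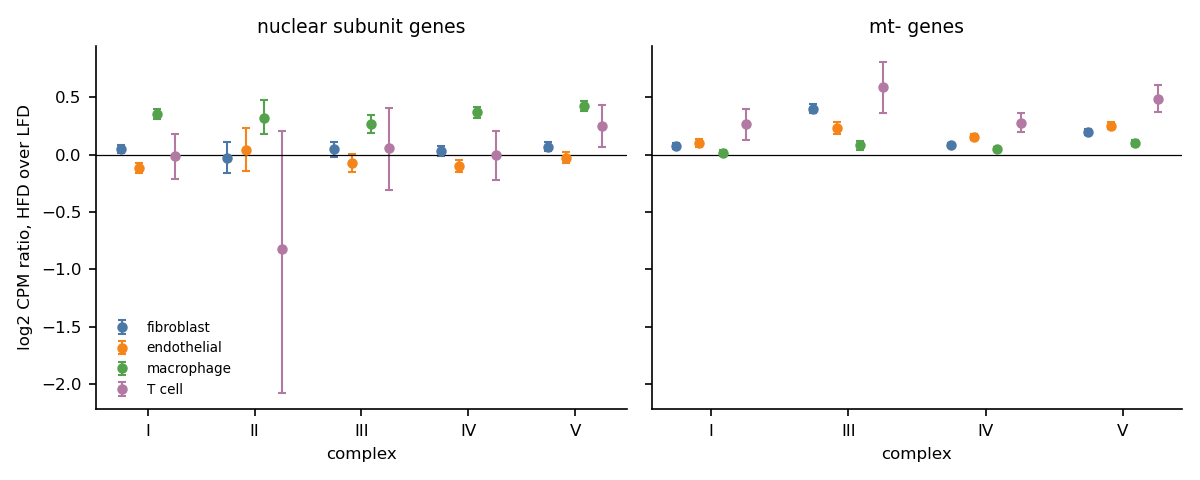
Log2 ratio of CPM on HFD to CPM on LFD for the sum of each complex, nuclear and mt- genes apart, by class, with 95% counting intervals. The nuclear sums of macrophages lie between 0.27 (complex III) and 0.42 (complex V), and their mt- sums between 0.01 (complex I) and 0.10 (complex V).

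The DNA upstream of the start site is shown for 3 genes. Ndufb6 and Atp5g1 stand for complexes I and V among the 16 macrophage genes that were higher together, and Ndufa4 had the lowest nuclear ratio in the endothelial class, given further on. The sequences are from RefSeq, build GRCm38.p6, and each spans 200 bases, from base 250 to base 51 before the RefSeq start site, written 5′ to 3′ on the strand of the gene. All 3 lie on the minus strand, at chr4:40279472-40279671 for Ndufb6, chr11:96075682-96075881 for Atp5g1 and chr6:11907501-11907700 for Ndufa4. Capitals mark matches, on either strand, to short motifs searched by their letters.
Ndufb6: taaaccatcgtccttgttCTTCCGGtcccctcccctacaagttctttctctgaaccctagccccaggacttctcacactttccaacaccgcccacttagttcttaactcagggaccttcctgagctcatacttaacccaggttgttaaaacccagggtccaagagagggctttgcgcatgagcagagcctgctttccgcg
Atp5g1: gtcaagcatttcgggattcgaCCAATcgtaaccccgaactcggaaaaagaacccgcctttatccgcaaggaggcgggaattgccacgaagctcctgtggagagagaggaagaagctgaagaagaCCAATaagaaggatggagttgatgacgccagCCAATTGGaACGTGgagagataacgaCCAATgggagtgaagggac
Ndufa4: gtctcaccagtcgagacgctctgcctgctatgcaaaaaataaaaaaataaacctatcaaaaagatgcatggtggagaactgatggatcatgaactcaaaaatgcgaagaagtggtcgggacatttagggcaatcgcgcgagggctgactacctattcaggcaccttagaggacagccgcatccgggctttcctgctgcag
The motifs were NRF-1 (GCGCATGCG), ETS (CCGGAAG), YY1 (AAGATGGC), the hypoxia response core (ACGTG) and the CCAAT box (CCAAT), and no motif contains another. The Ndufb6 window holds the ETS letters on the opposite strand, the Atp5g1 window holds CCAAT letters and the hypoxia response core, and the Ndufa4 window holds none of the 5. RefSeq windows were at hand for 67 of the 85 nuclear subunit genes. The share of these with a match was set beside the share over windows of 27025 genes. For NRF-1 it was 4.48% (3 of 67, interval 0.933 to 12.5%) against 0.988%. For ETS it was 7.46% (5 of 67, 2.47 to 16.6%) against 4.58%. YY1 stood at 1.49% (1 of 67, 0.0378 to 8.04%) against 1.56%. The hypoxia response core stood at 19.4% (13 of 67, 10.8 to 30.9%) against 14.5%. CCAAT stood at 35.8% (24 of 67, 24.5 to 48.5%) against 31.8%. Each interval includes the share over all windows, so no difference was detectable with 67 genes. The bases just after the RefSeq start of Atp5g1 are in 0 of its 4 GENCODE M21 transcripts, against 1 of 2 for Ndufb6 and 2 of 5 for Ndufa4. An unbroken run of bases was searched, which a splice junction would interrupt, so this does not settle where Atp5g1 starts. A match of letters is a description of the window and not a binding site.

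Macrophages were also split by Cd9, a tetraspanin gene, at 1 UMI. The Cd9-positive share was 4 of 229 barcodes on LFD and 116 of 320 on HFD, so diet and Cd9 can be told apart only within HFD or among Cd9-negative barcodes. Among Cd9-negative macrophages (225 and 204 barcodes, with median depths of 6296 and 6460.5 UMIs) the nuclear sum was 13536 CPM on LFD and 16431 CPM on HFD, a ratio of 1.21 (1.19 to 1.24). The mt- sums of the same barcodes were 59644 and 59983 CPM (ratio 1.01, 0.996 to 1.02). Of the 75 nuclear genes with at least 50 UMIs here, 7 were past 1.5-fold higher and 0 lower, beside 6.77% higher and 9.59% lower over all 5816 genes. These 7 are 9.33% of the 75, close to the background. Within the methods' limits 13 of 55 were past it higher and 0 lower, and the share over all genes was not counted there. A ratio above 1 was found for 66 of the 75, and the median log2 ratio was 0.26, against -0.01 over all genes. Ndufb6 (1.77) had the highest ratio, and Atp5o stood at 1.69.

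Within the HFD library, Cd9-positive macrophages had more of both sets than Cd9-negative ones. The nuclear sums were 18567 and 16431 CPM (ratio 1.13, 1.11 to 1.15) and the mt- sums were 63300 and 59983 CPM (ratio 1.06, 1.05 to 1.07). Their median depths were 8879.5 and 6460.5 UMIs, and a UMI of Cd9 is more often seen in a deeper barcode. Cycling moved with Cd9 too, as Mki67 and Top2a summed to 281 CPM in Cd9-positive and 116 CPM in Cd9-negative barcodes. In the 78 and 176 barcodes with no UMI of either, the nuclear sums were 17544 and 16372 CPM, which lie closer together. The mt- sums of the same barcodes were 66535 and 60618 CPM, which lie further apart. With each barcode thinned to 1000 UMIs the log2 ratios were 0.10 for the nuclear sum, down from 0.18, and -0.026 for the mt- sum, down from 0.078. Cd9 was still called on the full counts, so thinning did not remove the link between depth and the Cd9 call. Just 1 of 75 nuclear genes was past 1.5-fold higher and 0 were lower, where 13.9% of 5843 genes were higher and 15% were lower. This gene was Ndufs4, a complex I subunit, with 85 UMIs (63.5 CPM) in Cd9-negative and 153 UMIs (97.8 CPM) in Cd9-positive barcodes (ratio 1.54, 1.17 to 2.03). Next came Atp5g2 at 1.49 (1.33 to 1.67), and Atp5g1 stood at 1.44 (1.27 to 1.64). Ndufb6 at 0.98 (0.77 to 1.24) and Cox5a at 1.03 (0.92 to 1.14), both past 1.5-fold between diets, did not differ detectably by Cd9.

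Cycling cells were also more frequent among HFD macrophages. The cycling markers Mki67 and Top2a were at 111 CPM on LFD and 205 CPM on HFD. In barcodes with no UMI of either (218 and 254), the nuclear sum was 13300 CPM on LFD and 16859 CPM on HFD, a ratio of 1.27 beside 1.29 over the class. The 11 and 66 cycling barcodes stood at 17047 and 18958 CPM, a ratio of 1.11.

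Other genes of the mitochondrion were counted from lists, to be read against the 14.2% higher and 16.8% lower of all macrophage genes. Genes for the mitochondrial ribosome, which translates the mt- messages, were higher in macrophages too, at 3354 CPM on LFD and 4564 CPM on HFD (ratio 1.36, 1.32 to 1.41), with 21 of 73 past 1.5-fold higher and 0 lower. Chain genes with other names, such as Cycs and the adenine nucleotide carriers, had a ratio of 1.32 (1.26 to 1.38), with 3 of 12 higher and 0 lower. Cytosolic ribosomal protein genes, which are not mitochondrial, had a ratio of 1.18 (1.17 to 1.19) with 8 of 89 higher and 0 lower, a share of higher genes below that background. A sum ratio above 1 was thus not confined to the chain. The TCA cycle list stood at 698 and 790 CPM (ratio 1.13, 1.05 to 1.22; 1 of 13 higher, 0 lower), and assembly factors outside the prefixes at 681 and 788 CPM (1.16, 1.07 to 1.25; 1 of 14 higher, 0 lower). Regulators of mitochondrial biogenesis and mtDNA expression went the other way, at 246 CPM on LFD and 209 CPM on HFD (ratio 0.85, 0.75 to 0.97), with 1 of 9 past 1.5-fold higher and 1 lower. Oxidant defence genes had a ratio of 1.44 (1.38 to 1.5; 3 of 9 higher, 0 lower) in all macrophages, but 1.10 (1.05 to 1.16) in Cd9-negative ones.

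The 13 mt- genes of macrophages did not move as a unit, and 0 were past 1.5-fold. Highest on HFD were mt-Nd1, a complex I core subunit, at 2942 and 3523 CPM (ratio 1.20, 1.16 to 1.24), and mt-Co3, of complex IV, at 11040 and 12859 CPM (ratio 1.16, 1.14 to 1.19). Among Cd9-negative macrophages mt-Nd1 was close between diets, at 2939 and 3043 CPM (ratio 1.04, 0.99 to 1.08), and within HFD its ratio of Cd9-positive to Cd9-negative barcodes was 1.29 (1.24 to 1.35). For mt-Co3 the Cd9-negative ratio was 1.12 (1.09 to 1.14). By contrast mt-Co1, the catalytic subunit of the same complex IV, was lower, at 9929 and 8859 CPM (ratio 0.89, 0.87 to 0.91). Its share of all mt- UMIs was 16.7% on LFD and 14.3% on HFD, while that of mt-Co3 was 18.5 and 20.8%. Low genes sat at the bottom of the range. These were mt-Atp8, with 200 and 265 UMIs (135 and 91.3 CPM; ratio 0.68, 0.56 to 0.82), mt-Nd6, with 64 and 91 UMIs (43.2 and 31.4 CPM; ratio 0.73, 0.52 to 1.01), mt-Nd4l (0.78, 0.68 to 0.90) and mt-Nd5 (0.78, 0.72 to 0.85). The counts of this group are the least certain. On the mitochondrial chromosome mt-Atp8 (7766 to 7969) overlaps mt-Atp6 (7927 to 8607), mt-Nd4l (9877 to 10173) overlaps mt-Nd4 (10167 to 11544), and mt-Nd6 is read from the other strand (13552 to 14070) at the end of mt-Nd5 (11742 to 13565).

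Of these, mt-Nd6 and mt-Atp8 were also the lowest mt- genes in the other main classes. The ratio of mt-Nd6 was 0.69 (0.49 to 0.97) in fibroblasts and 0.72 (0.50 to 1.04) in the endothelial class, and that of mt-Atp8 was 0.79 (0.67 to 0.94) and 0.81 (0.66 to 1.0). At the top in fibroblasts was mt-Cytb, the mitochondrial subunit of complex III, with 3333 CPM on LFD and 4398 CPM on HFD (ratio 1.32, 1.28 to 1.36). In the endothelial class mt-Atp6, of the proton channel of complex V, was highest, at 9523 and 11404 CPM (ratio 1.20, 1.17 to 1.23). The ratio of mt-Nd2 was 0.95 (0.92 to 0.98) in macrophages, 1.03 (1.0 to 1.06) in fibroblasts and 1.10 (1.06 to 1.15) in the endothelial class.

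**Figure D4:**
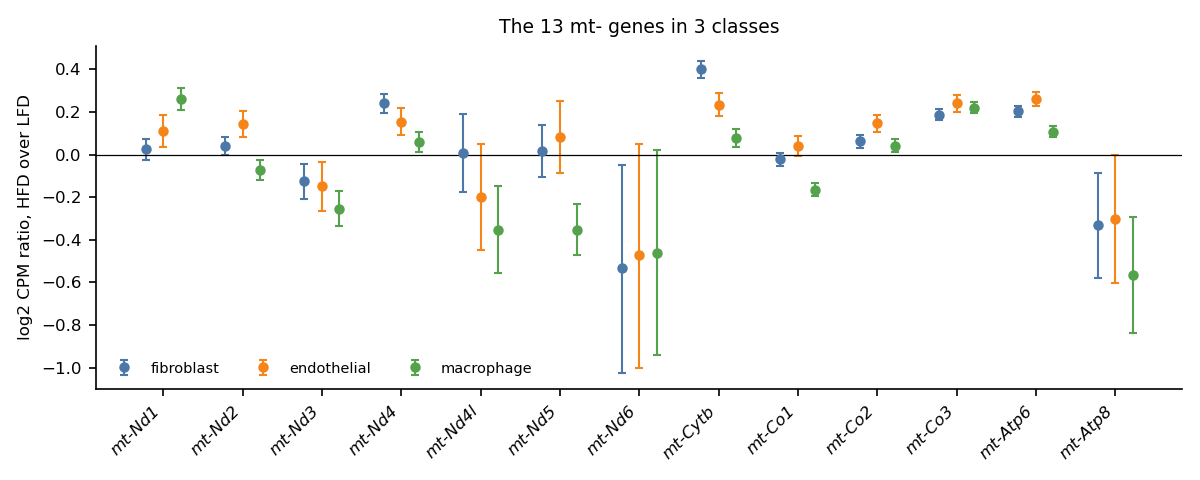
Ratio of CPM on HFD to CPM on LFD (log2 axis) for each of the 13 mt- genes in fibroblasts, the endothelial class and macrophages, with 95% counting intervals. In macrophages mt-Nd1 (1.20) and mt-Co3 (1.16) are highest and mt-Atp8 (0.68) is lowest.

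Macrophages stood apart from fibroblasts more in mt- genes than in nuclear ones. They held more mt- UMIs than fibroblasts in both libraries, with a ratio of 1.44 (1.43 to 1.46) on LFD and 1.36 (1.35 to 1.37) on HFD. This was widest for complex IV (1.55 and 1.5). For the nuclear sum the order was not the same in both libraries, as the macrophage to fibroblast ratio was 0.936 (0.921 to 0.952) on LFD and 1.17 (1.15 to 1.18) on HFD. The endothelial class stood above fibroblasts in the nuclear sum in both, by 1.26 (1.24 to 1.28) and 1.15 (1.13 to 1.17), and was close to them in the mt- sum (0.991 and 1.02).

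Few single genes separated the classes. Against fibroblasts, 7 of 77 nuclear genes were at least 1.5-fold higher in the endothelial class in both libraries and 0 were lower, fewer than the 22.4% higher and 17.8% lower of all 7605 genes. Ndufa4l2 and Cox4i2, described below, were far apart from the rest, and the other 5 were Ndufa8 (ratios 2.88 on LFD and 2.15 on HFD), Ndufc2 (2.38 and 2.07), Ndufs8 (2.27 and 1.87), Cox5a (2.56 and 1.81) and Atp5j (2.04 and 1.76). In macrophages against fibroblasts, 1 of 75 nuclear genes was higher in both libraries and 1 lower, against 17.9% and 23.7% of 7886 genes. Cox5a was the higher one (2.05 and 2.40) and Ndufs4 the lower one (0.59 and 0.63). Of these 3 classes, fibroblasts thus had the lowest level of Cox5a in both libraries.

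In fibroblasts 1 of 77 nuclear genes was past 1.5-fold higher on HFD and 0 lower, against 4.81% higher and 8.74% lower of 8357 genes. Within the methods' limits these were 3 higher and 2 lower of 72, and when thinned 1 higher and 1 lower of 66. The 1 gene of the full class was Ndufa4l2 (chr10:127514967-127517154 on the plus strand). Ndufa4l2 is a relative of Ndufa4 known as a target of hypoxia signalling that lowers oxygen use. It had 27 UMIs (8.54 CPM) on LFD and 113 UMIs (46.0 CPM) on HFD, a ratio of 5.38 (3.51 to 8.52). Of fibroblast barcodes, 20 of 377 (5.31%) on LFD and 64 of 293 (21.8%) on HFD held a UMI of it, with median depths of 8500 and 7908 UMIs. Macrophages, which should lack it, gave 0 of 229, which allows a share of up to 1.31% at 3 counts, and 2 of 320 (0.625%), at 6313 and 6897 UMIs. After thinning to 1000 UMIs the fibroblast shares were 0.269 and 4.81%, and macrophages had none. No fibroblast barcode held more than 3 UMIs on LFD or 6 on HFD.

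All 27 and 113 UMIs of Ndufa4l2 lay in fibroblast barcodes with no Rgs5 UMI, where Kcnj8 and Abcc9 summed to 3.52 CPM on LFD and 2.88 CPM on HFD. Over all fibroblasts the 4 mural markers, none of them at 0, summed to 8.23 CPM on LFD and 21.6 CPM on HFD, and their part in the ratio of Ndufa4l2 was not tested further. Fibroblasts with fewer than 3 UMIs of Pi16 and Dpp4, markers of early progenitors, held most of them, at 21 UMIs (12.5 CPM) on LFD and 106 UMIs (59.0 CPM) on HFD, a ratio of 4.72 (2.93 to 7.93). Those with 3 or more held 6 UMIs (4.04 CPM) and 7 UMIs (10.6 CPM), a ratio of 2.61 (0.75 to 9.41), and their barcodes numbered 149 on LFD and 65 on HFD. A difference between these groups in the effect of diet was not detectable at this depth.

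Its partner Ndufa4, a subunit named for complex I and now placed in complex IV, was level in fibroblasts, at 357 and 370 CPM (ratio 1.04, 0.95 to 1.13). As a share of the UMIs of both genes, Ndufa4l2 was 2.34% (1.54 to 3.38%) on LFD and 11.1% (9.20 to 13.1%) on HFD in fibroblasts. In macrophages it was 0 of 480 UMIs on LFD, which allows up to 0.625%, and 0.160% on HFD.

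**Figure D5:**
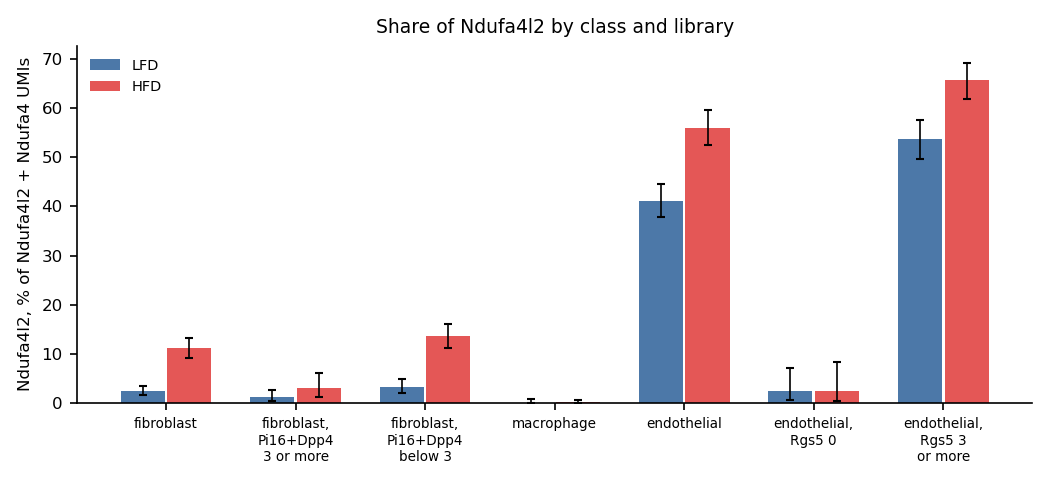
Share of Ndufa4l2 among the UMIs of Ndufa4l2 and Ndufa4 (%), by class and diet, with exact binomial 95% intervals. The share is 2.34 and 11.1% in fibroblasts and 41.1 and 56.1% in the endothelial class, and near 0 in macrophages.

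Among the other fibroblast genes Cox5a was the highest with narrow error, with 469 UMIs (148 CPM) on LFD and 495 UMIs (201 CPM) on HFD (ratio 1.36, 1.19 to 1.54). Cox6b2, known as the testis form of Cox6b, had 25 and 27 UMIs (ratio 1.39, 0.78 to 2.49). Atp5o (1.26, 1.13 to 1.41) and Ndufa8 (1.26, 1.09 to 1.45) were also above 1. The lowest nuclear subunit gene was Sdha, with 372 UMIs (118 CPM) on LFD and 217 UMIs (88.3 CPM) on HFD (ratio 0.75, 0.63 to 0.89). Of the assembly factors, Ndufaf7 had 78 and 43 UMIs (ratio 0.71, 0.48 to 1.04) and Sdhaf2, which helps to load flavin into Sdha, had 85 and 48 UMIs (ratio 0.73, 0.50 to 1.05). Cox4i1 (1.11, 1.04 to 1.18), Atp5b (1.12, 1.03 to 1.22), Cox7c (0.87, 0.79 to 0.96) and Atp5a1 (0.89, 0.80 to 0.99) lay on either side of 1. Mesothelial markers were at 631 CPM on LFD and 332 CPM on HFD in this class. Without the 29 and 14 barcodes with 3 or more UMIs of Msln and Upk3b, the nuclear sum was 13976 CPM on LFD and 14748 CPM on HFD (ratio 1.06).

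In the endothelial class 0 of 77 nuclear genes were past 1.5-fold higher on HFD and 2 were past it lower, beside 4.59% higher and 4.21% lower of 6603 genes. The 2 were no longer past it with barcodes of more than 1 class kept (0 genes), and 1 gene was past it among barcodes under 10% mt- UMIs. Within the methods' limits 2 of 53 were past it higher and 5 lower, and without Rgs5 barcodes 2 of 68 higher and 4 lower. Ndufa4 (chr6:11900292-11907497 on the minus strand) was the lowest, with 498 UMIs (381 CPM) on LFD and 347 UMIs (238 CPM) on HFD, a ratio of 0.63 (0.54 to 0.72). Ndufv3, an accessory subunit of the NADH-binding module, was the other, with 146 UMIs (112 CPM) and 106 UMIs (72.7 CPM), a ratio of 0.65 (0.50 to 0.84). Uqcr11, a small subunit of complex III, followed at 269 and 187 CPM (ratio 0.69, 0.59 to 0.81). The ratio of Ndufa4 was 0.63 in barcodes with 3 or more Rgs5 UMIs, 0.63 in those with 1 or 2 and 0.62 in those with 0.

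Several other subunits lay below 1 without passing 1.5-fold, such as Atp5e at 325 and 264 CPM (ratio 0.81, 0.71 to 0.94), Cox6b1 at 325 and 268 CPM (0.82, 0.72 to 0.95) and Cox6c at 509 and 442 CPM (0.87, 0.78 to 0.97). Uqcrc2, the core protein of complex III, was the highest nuclear subunit gene, at 114 and 154 CPM (ratio 1.35, 1.09 to 1.67), and Atp5g3 stood at 226 and 275 CPM (1.22, 1.04 to 1.42). The assembly factor Ndufaf4 had 16 UMIs on LFD and 40 on HFD (ratio 2.24, 1.23 to 4.29). Haemoglobin UMIs, which come from red cells, were at 7681 CPM on LFD and 6255 CPM on HFD in this class, and adipocyte markers at 1071 and 365 CPM. Their part in these ratios was not tested.

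Among the tissue-restricted isoforms, Cox4i2, a form of Cox4 known from lung and from oxygen sensing, had 105 UMIs (80.3 CPM) on LFD and 123 UMIs (84.4 CPM) on HFD in the endothelial class, 2 and 2 UMIs in fibroblasts, 1 and 1 in macrophages and 13 and 6 in barcodes of no class. Its share of Cox4 UMIs in the endothelial class was 9.14% (7.54 to 11%) and 9.51% (7.96 to 11.2%). Over all barcodes with at least 200 genes, those with 3 or more Rgs5 UMIs held 96.5% of the Cox4i2 UMIs on LFD and 93.5% on HFD. For Ndufa4l2 these shares were 91.5 and 78.7%. Both isoforms therefore sat in barcodes with mural markers, apart from the fibroblast UMIs of Ndufa4l2.

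The endothelial level of Ndufa4l2 followed the same split. It was 266 CPM on LFD and 304 CPM on HFD over the class (ratio 1.14, 0.99 to 1.32), 418 and 436 CPM in the 59 and 102 barcodes with 3 or more Rgs5 UMIs (ratio 1.04, 0.90 to 1.21), and only 3 and 2 UMIs in all in the 61 and 73 barcodes with none. Its share beside Ndufa4 was 41.1% (37.8 to 44.5%) on LFD and 56.1% (52.5 to 59.6%) on HFD. In the Rgs5 barcodes, where its own level was close between diets, the share was 53.7 and 65.7%, and the level of Ndufa4 was 360 and 228 CPM.

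The muscle and heart isoforms were rare. Cox6a2 had 9 UMIs on LFD and 20 on HFD in macrophages, 3.11 and 2.75% of Cox6a UMIs, and 0 in fibroblasts and the endothelial class, where its partner Cox6a1 had 316 to 599 UMIs. Of the 20, 6 lay in 1 barcode. Cox7a1 had 9 and 22 macrophage UMIs (2.82 and 2.79% of Cox7a), 6 and 2 in fibroblasts and 0 and 1 in the endothelial class. Cox8b had 4 and 5 UMIs in fibroblasts and 0 in macrophages. None of these shares was distinguishable between diets.

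The 3 rotor ring genes were used in different proportions by the classes. In macrophages Atp5g1, Atp5g2 and Atp5g3 had 33.3, 45.6 and 21.2% of their joint UMIs on LFD and 34.5, 43.5 and 22% on HFD. Fibroblasts had 38.3, 39.3 and 22.4% on LFD and 38.7, 37.4 and 23.9% on HFD. The endothelial class had more Atp5g3, with 30.4% (27.6 to 33.4%) on LFD and 34.8% (32.0 to 37.6%) on HFD. The macrophage shares overlapped between diets, so the 3 genes were higher on HFD in similar proportion.

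T cells were few on HFD, and 1 of their 21 barcodes gave 21.6% of their nuclear chain UMIs. The nuclear sum was 16823 CPM on LFD and 17660 CPM on HFD (ratio 1.05, 0.975 to 1.13) and the mt- sum 49548 and 62927 CPM (ratio 1.27, 1.22 to 1.32). The log2 ratio of the mt- sum, 0.34, was 0.081 (-0.033 to 0.19) within the methods' limits and 0.069 (-0.026 to 0.16) when thinned to 1000 UMIs. In this class the 3 NK cell markers stood at 387 CPM on LFD and 85.2 CPM on HFD (Gzma at 0) and the 7 macrophage markers at 366 and 21.3 CPM (6 of them at 0 on HFD). The 3 B cell markers were at 143 CPM and 0, and the cycling markers at 223 and 21.3 CPM (Mki67 at 0 on HFD). Their part in the ratios was not tested. With 47 nuclear genes at 50 UMIs or more, 6 were past 1.5-fold higher and 5 lower, beside 12.7% higher and 20.6% lower of 1081 genes, so the share of higher genes was near the background and that of lower genes below it. Ndufa6, a complex I subunit, had 80 UMIs on LFD and 2 on HFD (ratio 0.17, 0.02 to 0.65), and Uqcr10, of complex III, had 38 and 13 (ratio 2.39, 1.17 to 4.59). The ratio of mt-Cytb was 1.5 (1.29 to 1.75).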

How the data were processed

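The values are UMI counts per gene and barcode, which the authors made with Cell Ranger on mm10 and deposited without normalization (the file header names version 3.0.2). The tables hold called cells before the limits on genes and mt- UMIs in the study's methods, which leave 294 LFD and 352 HFD barcodes. No column of the files was left unused.

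Members and lists were chosen with earlier results of these data known. Barcodes with at least 200 genes were classed by the marker thresholds given above, and UMIs were summed per class and library and divided by all UMIs of the class (CPM). Intervals are exact at 95% (Poisson for CPM, conditional binomial for ratios, Clopper-Pearson for shares). With 1 library per diet, no test was run. A gene counted as past 1.5-fold among genes with at least 50 UMIs over both libraries, after 0.5 UMIs were added. The ratio intervals were tested on simulated data drawn with Poisson counting error alone, so spread between barcodes was not part of that test.

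Named genes were, in each class, the 3 highest and 3 lowest ratios, a fixed set of subunits, the isoform pairs and all mt- genes. Other genes in the text were named after their values were seen, and 1 member is not reported here. Complexes follow the symbol prefix, so Ndufa4 and Ndufa4l2 are counted in complex I. Ensembl IDs placed all 109 members in the GENCODE M21 annotation (GRCm38), where Atp5sl has another symbol. Doublets were kept. Scrublet, at an expected rate of 1%, marked 16 of 1057 LFD and 19 of 1117 HFD barcodes. Whether UMIs of antisense or overlapping genes were split by strand is not given in the sources used here.

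Alternatives changed the class thresholds, the treatment of doublets and of barcodes in more than 1 class, the limits on genes and mt- UMIs, the depth (1000 UMIs per barcode), the denominator, the UMI minimum and the fold. Leaving out cycling, mesothelial or Rgs5 barcodes, and splitting the barcodes for Ndufa4l2, were added after seeing the data. Tables were handled in Python 3.11.15 (pandas 2.3.3, numpy 2.4.6), intervals came from scipy 1.17.1, Scrublet was run through scanpy 1.11.5, and figures were drawn with matplotlib 3.10.9.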

Additional observations from a re-analysis of the deposited data

Results flagged for a closer look

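Several results had opposite directions between classes under the same contrast of HFD with LFD, with counting intervals that exclude 0 on both sides. Since there was 1 library per diet, none of these differences was tested. For all nuclear subunit genes the log2 ratio was 0.37 in macrophages, 0.05 in fibroblasts and -0.08 in the endothelial class. Ndufa4 was at 0.4 in macrophages and -0.68 in the endothelial class. Uqcr11 was at 0.3 and -0.53, Cox6b1 at 0.38 and -0.28, and Cox6c at 0.16 and -0.2 in the same pair of classes. Atp5e was at 0.49 in macrophages, -0.3 in the endothelial class and -0.82 in T cells. Cox7c was at 0.27 in macrophages and -0.2 in fibroblasts. The mt- gene mt-Nd2 was at 0.14 in the endothelial class, 0.3 in T cells and -0.07 in macrophages.

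Barcodes of no class, which enter no ratio between diets above, held 30 UMIs of Ndufa4l2 on LFD and 19 on HFD, more than the 0 and 2 UMIs in macrophages. On LFD they lay in 6 of 215 barcodes, and on HFD in 11 of 249.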

How the results depend on the processing

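No paired analysis was possible because each diet had 1 library, and leaving out a replicate was not possible for the same reason. Each alternative value was sorted by the counting interval of the reported value. Over 39 alternatives of the nuclear log2 ratios, 30 lay inside it, 7 lay outside it with the same sign and 2 reversed sign. For 34 alternatives of the mt- log2 ratios the counts were 14, 16 and 4. The often wider intervals of the alternatives were not used. That of macrophages within the methods' limits (0.28 to 0.40), sorted as outside, includes the reported nuclear value. The cause was not tested. Within the limits of the study's methods on genes and mt- UMIs, which leave 49 to 91 barcodes of each main class, the nuclear log2 ratio was 0.34 in macrophages (0.37 in the report), -0.13 in the endothelial class (-0.081), and of reversed sign in fibroblasts, -0.011 (0.049), and T cells, -0.059 (0.070). The mt- values there were -0.019 in macrophages, reversed from 0.054, 0.14 in the endothelial class (0.17), 0.094 in fibroblasts (0.14) and 0.081 in T cells (0.34). Thinned to 1000 UMIs, the nuclear value was 0.32 in macrophages and -0.16 in the endothelial class, and the mt- value -0.020 in macrophages (reversed), -0.013 in Cd9-negative macrophages (reversed from 0.0082), 0.21 in the endothelial class, 0.036 in fibroblasts and 0.069 in T cells. Under 10% mt- UMIs, the mt- value was 0.017 in macrophages, -0.011 in Cd9-negative ones (reversed), 0.21 in the endothelial class and 0.073 in fibroblasts. With barcodes of more than 1 class kept it was 0.068 in macrophages, 0.22 in the endothelial class, 0.17 in fibroblasts and 0.19 in T cells, and with class thresholds doubled 0.15 in the endothelial class and 0.23 in T cells. Without cycling barcodes the nuclear value of macrophages was 0.34, without Rgs5 barcodes that of the endothelial class was -0.048 (-0.10 to 0.0080), and without mesothelial barcodes the fibroblast values were 0.078 nuclear and 0.17 mt-. The Cd9 contrast in the HFD library (0.18 nuclear, 0.078 mt-) was 0.20 and 0.10 at a Cd9 threshold of 3, 0.10 and -0.026 (reversed) when thinned, and 0.050 for mt- under 10% mt- UMIs. Counts of nuclear genes past the fold were 16 of 75 in macrophages and 7 of 75 in Cd9-negative ones, and 0 of 75 in both at 2-fold. Within the methods' limits the Cd9-negative count was 13 of 55. The endothelial count of 2 of 77 was 0 of 77 with overlapping barcodes kept, 1 of 77 under 10% mt- UMIs and 0 of 77 at 2-fold. It was 7 of 53 within the methods' limits and 6 of 68 without Rgs5 barcodes. The fibroblast count of 1 of 77 was 5 of 72 within the methods' limits (3 higher, 2 lower) and 2 of 66 when thinned (1 higher, 1 lower). For T cells the count of 11 of 47 was 3 of 11 within these limits and 1 of 4 when thinned. It was 22 of 72 at 20 UMIs and 3 of 47 at 2-fold. The share over all genes was not counted at these settings. Values for T cells rest on 21 barcodes on HFD, and those for the muscle and heart isoforms on few UMIs in every class. Removing Scrublet-marked barcodes moved none of the sums outside the counting interval of the reported value.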

Other observations

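Barcodes that met no class rule had more mt- UMIs on LFD, at 94080 CPM, than on HFD, at 62167 CPM (ratio 0.661, 0.654 to 0.668). Their nuclear sums were 20313 and 18186 CPM (ratio 0.895, 0.876 to 0.915). The 67 and 55 of them with 10% or more mt- UMIs had mt- sums of 248584 CPM on LFD and 291982 CPM on HFD (ratio 1.17, 1.16 to 1.19), and the 148 and 194 others had 46361 and 44224 CPM (ratio 0.954, 0.939 to 0.969), so a ratio as low as 0.661 was seen in neither. Their nuclear sums were 24851 and 12204 CPM in the former, and 18911 and 18653 CPM in the latter.

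Barcodes with 3 or more UMIs of Adipoq, an adipocyte hormone, numbered 27 on LFD and 7 on HFD, of which 13 and 2 met no class rule. They had nuclear sums of 21524 and 19959 CPM and mt- sums of 80084 and 99623 CPM. The 13 and 2 barcodes of no class carried much of the mt- level, at 297207 CPM on LFD and 530247 CPM on HFD.

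Ucp2, the uncoupling protein with at least 50 UMIs, carried the uncoupling list in macrophages, which stood at 385 CPM on LFD and 615 CPM on HFD (ratio 1.60, 1.46 to 1.76). Among Cd9-negative macrophages the list stood at 382 and 464 CPM (ratio 1.21, 1.08 to 1.36).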
